A study of Mesocricetus auratus with 10 samples.

Results

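The enzymes that turn squalene into cholesterol were examined in liver of golden hamsters (Mesocricetus auratus). The set was defined by gene name and takes every non-control probe named SQLE, LSS, CYP51, NSDHL, HSD17B7, EBP or DHCR7 in the array design. Of these 7 names, 6 were on the array, with 22 of its 116452 probes on 9 assembled transcripts, among 14433 named genes. HSD17B7, a sterol ketone reductase, was not among the gene names and was not analysed here. All 22 probes passed the filter on dim probes described with the first result.

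The animals tested were 10 male hamsters fed a high fat diet (HFD), in a study of diet-induced fatty liver. All were set against the same RNA, a single pool made from the livers of 10 animals on a standard diet (STD). Every HFD animal had 2 two-colour arrays of opposite dye assignment, 20 arrays in all, and counts as 1 of 10 replicates. The sources used here do not give strain, age, diet composition or time on the diet. The pool enters every ratio as 1 fixed RNA, so that the spread between STD animals is not part of any test. Values are log2 ratios, HFD liver over STD pool, with the SD between the 10 HFD animals.

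Squalene is a linear hydrocarbon intermediate of cholesterol synthesis. SQLE oxidises it to an epoxide, LSS closes the rings to lanosterol, CYP51 removes a methyl group, NSDHL and HSD17B7 take part in removing further methyl groups, EBP shifts a double bond and DHCR7 reduces the last ring double bond. In mammalian liver the genes of this route are targets of the transcription factor SREBP-2, which is held back in the endoplasmic reticulum when sterols are plentiful. SQLE is one of the controlled steps of the pathway.

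The probes are 60 bases long, and those on which the results turn are printed 5′ to 3′ as in the array design. SQLE and DHCR7 had a single probe each, and the pairs of CYP51, EBP, LSS and NSDHL are shown because probes of the same gene gave different ratios or share bases. Capitals mark a run of at least 20 bases found on the same strand in another probe of the array.
SQLE 88130: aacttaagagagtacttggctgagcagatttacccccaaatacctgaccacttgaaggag
LSS 60954: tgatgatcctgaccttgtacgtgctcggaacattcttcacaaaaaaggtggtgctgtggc
LSS 94309: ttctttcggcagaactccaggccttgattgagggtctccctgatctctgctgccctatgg
CYP51 76094: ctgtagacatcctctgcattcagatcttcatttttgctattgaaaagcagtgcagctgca
CYP51 23307: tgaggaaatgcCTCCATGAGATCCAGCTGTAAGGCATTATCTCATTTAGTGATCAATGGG
NSDHL 80441: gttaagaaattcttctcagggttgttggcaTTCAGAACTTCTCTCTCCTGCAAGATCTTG
NSDHL 57569: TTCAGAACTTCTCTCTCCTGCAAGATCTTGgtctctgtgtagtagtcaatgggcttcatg
NSDHL 57568: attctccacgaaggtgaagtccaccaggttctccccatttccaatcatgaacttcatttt
EBP 55238: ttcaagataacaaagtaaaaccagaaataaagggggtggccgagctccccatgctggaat
EBP 55239: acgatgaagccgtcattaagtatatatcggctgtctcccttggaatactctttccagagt
DHCR7 494: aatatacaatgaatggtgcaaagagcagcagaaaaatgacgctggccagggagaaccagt

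The array design gives no genome position for these transcripts, so that no coordinates, exons or UTRs can be stated. Whether each probe is printed in the direction of its mRNA was not tested. In CYP51 probe 23307, bases 12 to 60 occur unbroken, 49 bases in all, in probe 10233 of an unnamed transcript. It also shares 26 bases on the same strand with probe 71846 and 22 on the opposite strand with probe 14864, both of further unnamed transcripts. This CYP51 probe also had no reading frame free of stop codons on either strand, whereas the other 21 had at least 1. A run of at least 20 bases shared with a probe of another name, on either strand, was found in 2 of the 22 probes and in 3.33% of the 67049 probes with a gene name, and a lack of any open frame in 0.74% of them. The other such probe was LSS 60952, which shares 23 bases with the opposite strand of a probe of an unnamed transcript. The capitals in NSDHL probes 80441 and 57569 are the same 30 bases, so that these probes overlap and are not independent readings.

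Averaged over its probes, each of the 6 genes lay below the STD pool in 10 of 10 HFD livers, and SQLE fell most. For CYP51 this rests on probe 76094, as probe 23307 was below 0 in 3 animals. By the brightest probe of each gene, 15.1% of 13946 named genes were below 0 in all 10 animals, with CYP51 and NSDHL not among them. Of the 22 probes, 10 are named LSS and 6 NSDHL. Over all probes, 21 of the 22 were lower at an adjusted p below 0.05 (limma, two-sided, Benjamini-Hochberg over all 106754 probes tested) and 0 were higher. Among all tested probes, 27.9% were lower and 26.3% were higher, 54.1% in either direction. In all 10 animals 18 of the 22 probes had a ratio below 0, against 13.9% of all probes. The median of the 22 mean ratios was -0.38, and that of all tested probes was -0.00054. To be tested, a probe had to be well above background, in either of the RNAs, on 10 or more of the 20 arrays. DHCR7 494 and LSS 94313 reached 10 arrays only through the pool, which favours a lower call. With 10 arrays required in each RNA, 19 of the 20 probes left were lower. In liver RNA as a whole, fewer cells of a type and less RNA per cell cannot be told apart.

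**Figure D1:**
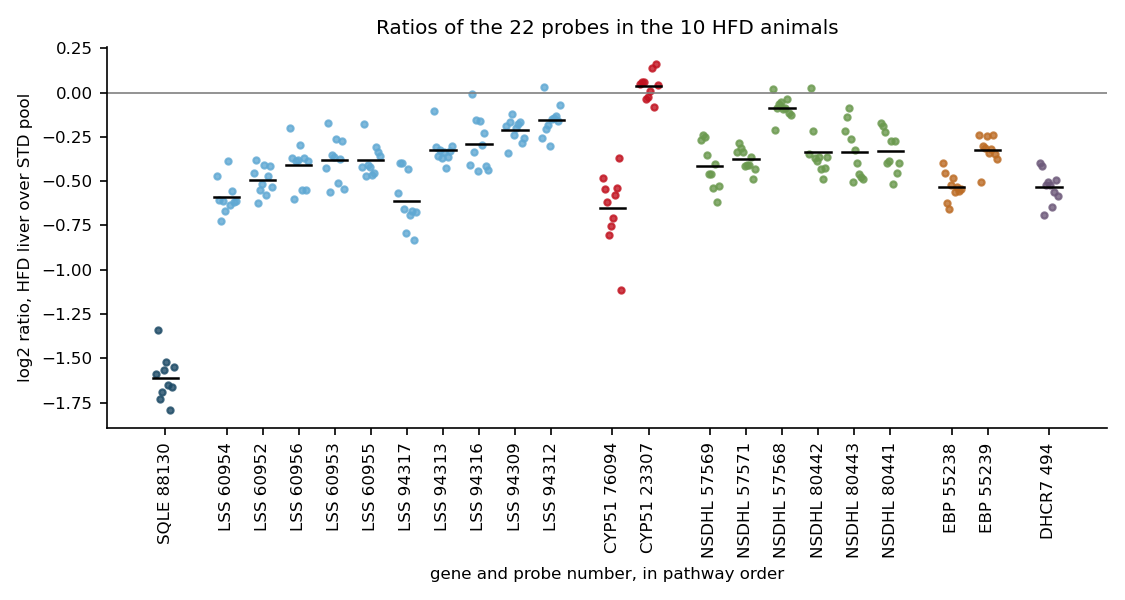
Log2 ratio of HFD liver over the STD pool (vertical axis) for each of the 22 probes (horizontal axis, by gene in pathway order), with 1 point per HFD animal and a black bar at the mean of 10. The SQLE probe lies below all others in every animal, and CYP51 probe 23307 is the only probe whose mean is above 0.

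SQLE, squalene epoxidase, had ratios between -1.79 and -1.34 in the 10 HFD animals, with a median of -1.62. Every animal lay below 0, animal 2 was the highest and animal 8 the lowest. The mean was -1.61 ± 0.13, a 3.05-fold lower level in HFD liver than in the STD pool (adjusted p = 1.004e-11). The size depended on the processing, with -2.96 in the authors' deposited log2 ratios and -3.19 in the scanner software's processed signals. Represented by this probe, SQLE ranked 9 from the bottom of 13946 named genes.

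The signal above local background, as the mean of an animal's 2 arrays before any dye correction, shows what lies behind this ratio. For SQLE it was 15.1 at the lowest, 36.5 at the median and 231.8 at the highest in HFD RNA, against 182.7, 209.7 and 272.3 intensity units in the STD pool. The HFD and pool values overlapped through animal 2 alone, and in the other 9 animals HFD RNA gave at most 49.7 units. The array of animal 2 with HFD in Cy5 had a median red signal of 713.7 units over non-control spots, above all other arrays. It gave the highest HFD signal for 21 of the 22 probes. Without animal 2 the SQLE mean was -1.64 and the count of lower probes stayed at 21. SQLE was well above background in HFD RNA on 12 of 20 arrays and in the pool on 20, so that its HFD level is close to the limit of measurement.

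**Figure D2:**
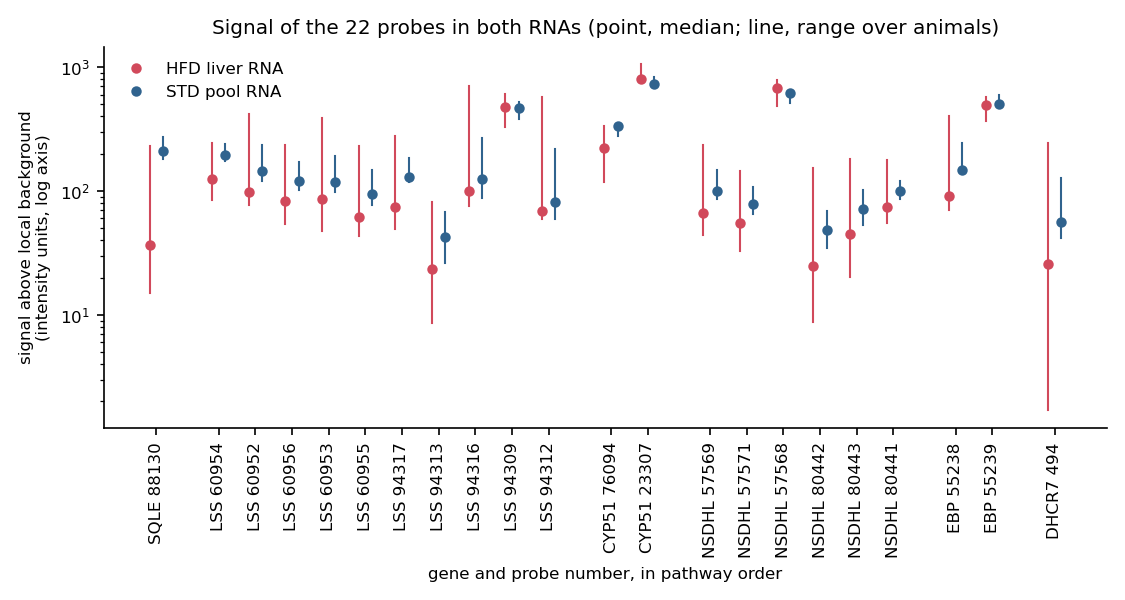
Signal above local background in intensity units (vertical log axis) of the 22 probes, with HFD liver RNA in red at the left and STD pool RNA in blue at the right of each pair. Points are medians over 10 animals and lines run from the lowest to the highest animal. SQLE, at 36.5 units in HFD RNA and 209.7 in the pool, shows the widest gap between the points, while the brightest probes of CYP51, NSDHL, EBP and LSS show nearly level points.

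LSS, lanosterol synthase, was read by 10 probes on a pair of assembled transcripts, and all 10 were lower in HFD liver than in the STD pool. Their means lay between -0.61 in probe 94317 and -0.16 in probe 94312. In 9 of them all 10 animals were below 0, and in probe 94312 animal 2 stood at 0.03. Averaged over its 10 probes, LSS was -0.45 at the lowest, -0.40 at the median and -0.27 at the highest in the HFD animals. The mean of these averages was -0.38 ± 0.06 (SD, n = 10).

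The LSS transcripts differed in size of change in these ratios, and less in another source. The 5 probes of transcript 55337 averaged -0.45 ± 0.08 and the 5 of transcript 152431 averaged -0.32 ± 0.07. Transcript 55337 was the lower one in 10 of 10 animals, by 0.13 ± 0.08 on the log2 scale. An exact sign-permutation test over the 10 animals gave an adjusted p = 0.00586. This is the first of 9 such two-sided comparisons, whose p-values were adjusted together, and its unadjusted p of 0.00195 is the smallest that 10 animals allow. In the scanner software's processed signals the transcripts stood at -0.76 and -0.72, and the gap of -0.04 did not pass the test (exact sign-permutation test, adjusted p = 0.483). Probe 94313 of transcript 152431 was well above background in HFD RNA on only 7 of 20 arrays, and its ratio is the least certain of the LSS values. Bases 47 to 60 of probe 60952, on transcript 55337, occur on the opposite strand in probe 94317 of transcript 152431. Runs of 14 bases were also shared with probes of other genes. Whether the LSS transcripts are printed in the same direction was not tested.

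CYP51, lanosterol demethylase, was lower at 1 of its pair of probes and was not called at the other. Probe 76094 had ratios between -1.12 and -0.37, with a median of -0.60, and all 10 HFD animals lay below 0. Its signal was 119.0, 223.5 and 331.8 units at the lowest, median and highest animal in HFD RNA, against 280.1, 333.3 and 347.4 units in the STD pool. The mean ratio was -0.65 ± 0.21, a 1.57-fold lower level in HFD liver (adjusted p = 1.203e-06).

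Probe 23307 of CYP51 had ratios between -0.08 and 0.16 with a median of 0.05, below 0 in 3 animals and above 0 in 7. Its mean of 0.04 ± 0.07 did not pass the test (adjusted p = 0.27, limma). Its signal was 772.5, 807.7 and 1052 units in HFD RNA, against 686.9, 732.5 and 827.1 units in the pool, and it was the brightest of the 22 probes. Probe 76094 was lower than 23307 in 10 of 10 animals, by 0.69 ± 0.20 on the log2 scale (exact sign-permutation test, adjusted p = 0.00586). Probe 10233 of the unnamed transcript, which shares 49 bases with 23307, had a mean of 0.08 ± 0.11 that did not pass the test either (adjusted p = 0.064). That probe gave a median of 528.9 units in HFD RNA and 455.1 in the pool. Unnamed probe 71846, which shares 26 bases with 23307, was lower at -0.12 ± 0.11 (adjusted p = 0.0121, limma), below 0 in 8 animals. Whether probe 23307 reads CYP51 RNA was not tested.

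NSDHL, a dehydrogenase in the removal of sterol methyl groups, was lower in HFD liver at all 6 probes. The means of 5 of them lay between -0.41 and -0.33. The sixth, probe 57568, is the brightest and had ratios of -0.21 at the lowest, -0.09 at the median and 0.02 at the highest animal, with 9 of 10 animals below 0. Its mean of -0.08 ± 0.06 was a 1.06-fold lower level (adjusted p = 0.0118), and the call was lost in 5 of 23 alternative settings of the analysis, at adjusted p between 0.052 and 0.92.

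Averaged over 6 probes, NSDHL was -0.31 ± 0.09 in HFD liver (SD, n = 10), and the difference between its transcripts depended on the source of the ratios. Transcript 118315 averaged -0.33 and transcript 45518 averaged -0.29, lower in 118315 in 8 of 10 animals (exact sign-permutation test, adjusted p = 0.158). The gap was -0.29 in the authors' deposited log2 ratios and -0.35 in the processed signals, lower in 118315 in 9 of 10 animals in each (exact sign-permutation test, adjusted p = 0.00879 in both). The NSDHL averages also separated along a set of arrays that resembled each other. Animals 5 to 10 lay between -0.43 and -0.32, and animals 1 to 4 between -0.30 and -0.17, with no overlap. The arrays with HFD in Cy3 of animals 5 to 10 are 6 arrays that correlated with each other at r between 0.826 and 0.908 over all probes, against 0.366 to 0.762 with the other arrays of that orientation. On the arrays with HFD in Cy3, NSDHL averaged -0.44 in animals 5 to 10 and -0.21 in animals 1 to 4. On the arrays with HFD in Cy5 these averages were -0.30 and -0.23, with overlapping ranges. This split was noticed in the values and was not tested.

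EBP, the sterol isomerase, was lower in HFD liver at both probes of its single transcript. Probe 55238 had ratios of -0.66 at the lowest, -0.54 at the median and -0.40 at the highest animal, all below 0. Its mean was -0.53 ± 0.08, a 1.45-fold lower level (adjusted p = 1.147e-08). Probe 55239, which was brighter, had ratios of -0.51, -0.32 and -0.24 at the lowest, median and highest animal and a mean of -0.32 ± 0.08 (adjusted p = 1.207e-06). Probe 55238 was the lower one in 9 of 10 animals, by 0.21 ± 0.12 on the log2 scale (exact sign-permutation test, adjusted p = 0.00879). On arrays with HFD in Cy3 alone this gap was -0.04 and did not pass the test (adjusted p = 0.267, same exact test).

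DHCR7, which makes cholesterol from 7-dehydrocholesterol, had ratios between -0.69 and -0.40 at its single probe, with a median of -0.52. All 10 HFD animals lay below 0. The mean was -0.53 ± 0.09, a 1.45-fold lower level in HFD liver (adjusted p = 3.042e-08). This size too depended on the processing, with -1.72 in the authors' deposited log2 ratios and -2.13 in the processed signals. The signal was 25.7 units at the median in HFD RNA and 55.8 in the STD pool, and the probe was well above background in HFD RNA on 7 of 20 arrays and in the pool on 20. DHCR7, LSS 94313 and NSDHL 80442 were the dimmest of the 22 probes, and the DHCR7 fold change rests on HFD signals near background.

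Ordered by the mean over all their probes, the genes ran SQLE at -1.61, DHCR7 at -0.53, EBP at -0.43, LSS at -0.38, and NSDHL and CYP51 both at -0.31. SQLE was the lowest of the 6 in 10 of 10 animals. SQLE lay below DHCR7 (adjusted p = 0.00586), DHCR7 below EBP (adjusted p = 0.0117) and LSS below NSDHL (adjusted p = 0.0117), each by an exact sign-permutation test over 10 animals. The neighbours EBP and LSS differed by -0.04 ± 0.08 (adjusted p = 0.158), and NSDHL and CYP51 differed by -0.0054 ± 0.14 (adjusted p = 0.92), differences that did not pass the test. All these pairs are neighbours in the order of the same values, so that their p-values do not test the order itself. Below SQLE the order depended on the source of the ratios. In the authors' deposited log2 ratios it ran DHCR7 at -1.72, NSDHL at -0.68, LSS at -0.67, EBP at -0.60 and CYP51 at -0.38, and the processed signals gave the same order. LSS and NSDHL then differed by less than the spread between animals, and NSDHL lay below CYP51 in 10 of 10 animals in the authors' deposited log2 ratios (exact sign-permutation test, adjusted p = 0.00352). On arrays with HFD in Cy3 alone, DHCR7 stood 0.05 above EBP, a difference that did not pass the test (exact, adjusted p = 0.327). The CYP51 average joins a probe that fell and a probe that did not pass the test. The EBP average joins probe 55238 at -0.53, level with DHCR7, and probe 55239 at -0.32. The NSDHL average joins probe 57568 at -0.08 and probes between -0.41 and -0.33, a range that holds the LSS average. The places of EBP and NSDHL in the order thus depend on single probes. An order across genes compares different probes, whose sensitivities differ and whose strands were not compared.

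With the brightest probe standing for each gene, 5 of the 6 genes were lower in HFD liver and 0 higher, while 28.7% of 13946 named genes were lower and 31.2% higher, 59.9% in either direction. By this rule SQLE stood at -1.61, DHCR7 at -0.53, EBP at -0.32, LSS at -0.21, NSDHL at -0.08 and CYP51 at 0.04. In CYP51, NSDHL and EBP the brightest probe had the smallest change of the gene's probes, and in LSS it had the second smallest. Over 11225 genes with at least 2 tested probes, the brightest had the smallest change in 23.9% and the largest in 35%. With the mean of all tested probes of a gene, all 6 were lower, CYP51 included at -0.31 (adjusted p = 1.611e-05). By that mean, 4034 of 13946 named genes were lower and 4484 higher.

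The brightest probes of EBP, LSS and CYP51 had the widest gaps between dye orientations. EBP 55239 averaged -0.15 ± 0.17 on arrays with HFD in Cy5 and -0.49 ± 0.08 on arrays with HFD in Cy3. LSS 94309 averaged -0.08 ± 0.13 and -0.34 ± 0.07 in these orientations, and CYP51 23307 averaged -0.09 ± 0.10 and 0.16 ± 0.09. LSS 94313 and CYP51 76094 followed. NSDHL 57568 averaged 0.0056 ± 0.12 with HFD in Cy5 and -0.17 ± 0.04 with HFD in Cy3. SQLE stood at -1.57 ± 0.33 and -1.64 ± 0.23, a gap smaller than the SD of either orientation. A dye effect cancels in the mean of both orientations, which stands for each animal unless arrays of 1 orientation or a subset of arrays are named.

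**Figure D3:**
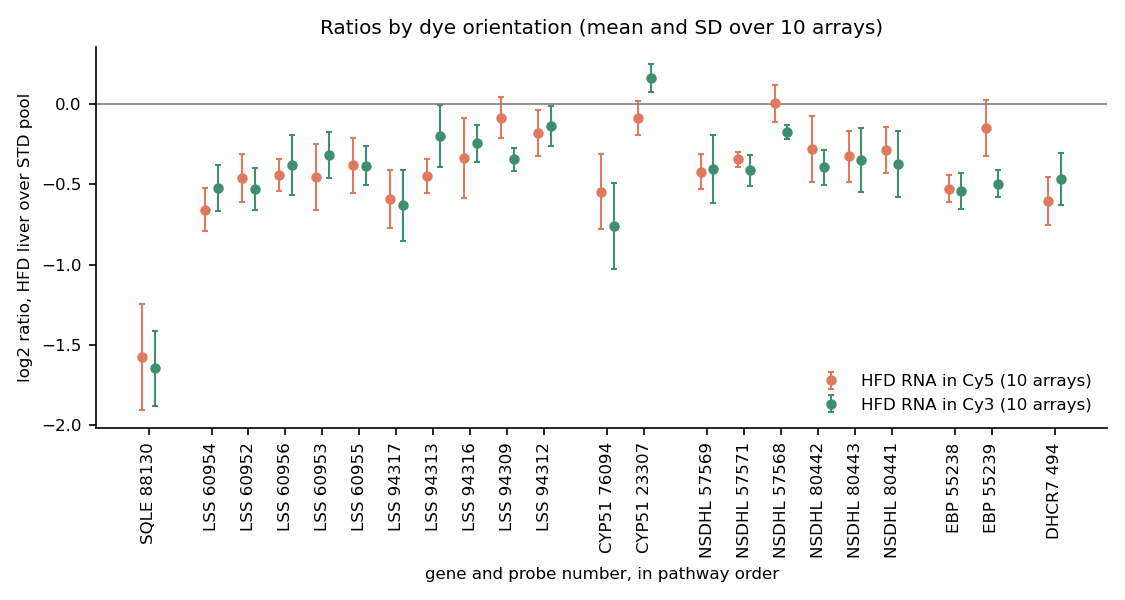
Mean log2 ratio of HFD liver over the STD pool (vertical axis; bars, SD over 10 arrays) of each probe, on arrays with HFD RNA in Cy5 (orange) and in Cy3 (green). The widest gaps are at EBP 55239, LSS 94309, CYP51 23307, LSS 94313 and CYP51 76094, and SQLE lies between -1.64 and -1.57 in both.

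The size of the changes differed between 3 sources of the ratios, and in these 3 no member probe changed direction. The sources differ in more than 1 step, so that the part of each step was not tested. The ratios above use a background correction that adds 50 units to every signal, a step that lowers the size of ratios at dim probes. In the authors' deposited log2 ratios, SQLE stood at -2.96, DHCR7 at -1.72, LSS 94313 at -1.01 and NSDHL 80442 at -1.09. In the scanner software's processed signals, SQLE stood at -3.19, DHCR7 at -2.13, LSS 94313 at -1.43 and NSDHL 80442 at -1.36, the last against -0.34 in the ratios above. Bright probes moved little, such as EBP 55239 at -0.38 in both. In each of these sources 21 of the 22 probes were called lower, with CYP51 23307 at 0.04 in the authors' deposited log2 ratios and 0.03 in the processed signals. CYP51 76094 stood at -0.81 and -0.83 in these sources, and EBP 55238 at -0.82 and -0.83.

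**Figure D4:**
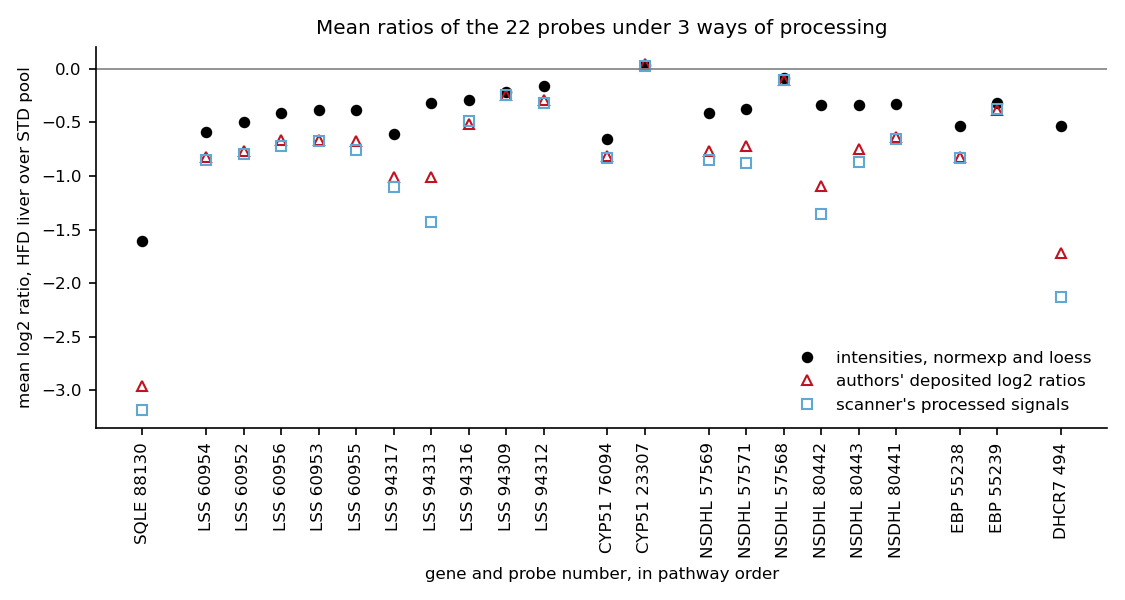
Mean log2 ratio over 10 animals (vertical axis) of each probe from corrected and loess-normalised intensities (black circles), the authors' deposited log2 ratios (red triangles) and the scanner's processed signals (blue squares). Dim probes such as SQLE, DHCR7 and LSS 94313 lie lower in the other 2 sources, and the brightest probes of LSS, CYP51, NSDHL and EBP keep their values.

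The counts held within technical subsets. On the 14 arrays left after taking out the 6 that resembled each other, 20 of 22 probes were lower, with SQLE at -1.62, DHCR7 at -0.58 and CYP51 76094 at -0.54. Scan session 1 (10 arrays) and scan session 3 (9 arrays) each gave 20 of 22 lower, and session 2 held 1 array and gave no value. SQLE was -1.80 in session 1 and -1.39 in session 3. NSDHL 57568 was the probe that lost its call in each of these subsets, at -0.08, -0.05 and -0.12. By their brightest probes, 2815 of 13943 named genes were lower and 3937 higher on the 14 arrays. These counts were 3394 and 3918 of 13930 in session 1 and 2361 and 2738 of 13941 in session 3. With all arrays they were 3996 and 4358 of 13946. Sessions 1 and 3 held 1 array per animal, and the 14 arrays held animals 5 to 10 with HFD in Cy5 only. A dye effect does not cancel within those animals.

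Further enzymes of the same stretch of the pathway were measured beside the set. Of 6 listed genes, 5 were tested, and 4 were lower in HFD liver than in the STD pool and 1 higher. Among all named genes, 28.7% were lower and 31.2% higher. The median of the 5 was -0.50, and that of all named genes was 0.0083. SC5DL, the sterol desaturase, was -0.62 ± 0.14 and lower at all 3 probes, and 5 further probes named SC5D were lower as well. C14ORF1, a scaffold of the demethylation enzymes, was -0.55 ± 0.08 at its single probe, and SC4MOL, the methylsterol oxidase, was -0.50 ± 0.12. TM7SF2, a sterol reductase, was -0.36 ± 0.12. SC4MOL and TM7SF2 were well above background in HFD RNA on only 7 and 3 of 20 arrays. They passed the filter only through the pool, as did SC5D probes 3827 and 3828, which favours a lower call.

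LBR, a receptor of the nuclear lamina that carries the same reductase activity as TM7SF2, was the exception. Its brightest probe was higher at 0.22 ± 0.14 (adjusted p = 0.000543, 9 of 10 animals above 0). A second LBR probe was lower at -0.15 and the other 3 did not pass the test, so that LBR has no single direction over its probes.

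**Figure D5:**
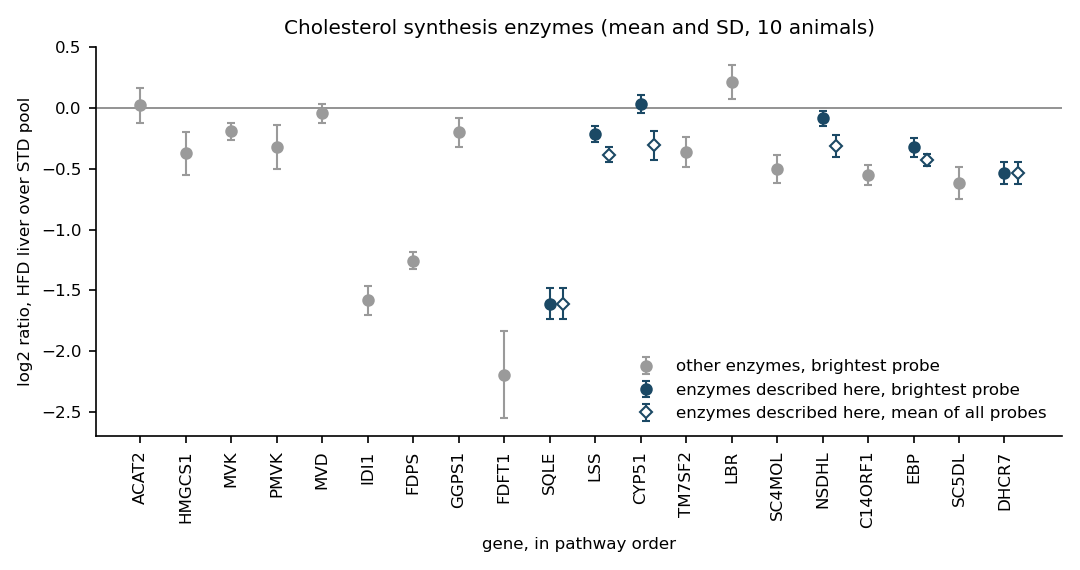
Mean log2 ratio of HFD liver over the STD pool (vertical axis; bars, SD over 10 animals) of cholesterol synthesis enzymes in pathway order. Filled points are brightest probes, dark for the 6 enzymes described here and grey for the others, and open diamonds are means of all probes of a gene. FDFT1 at -2.20, SQLE at -1.61 and IDI1 at -1.58 lie lowest, and LBR at 0.22 lies above 0.

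Upstream of squalene, 7 of 9 mevalonate pathway enzymes were lower, 0 were higher and 2 did not pass the test, with a median of -0.32. Their values ran between -2.20 ± 0.36 for FDFT1, the synthase that makes squalene, and 0.02 ± 0.15 for ACAT2, an acetyl-CoA thiolase. FDFT1 was the lowest of all 13946 named genes, so that the enzymes that make squalene and that first oxidise it were both among the 10 lowest. Of 12 sterol-sensing genes, 7 were lower, 4 higher and 1 did not pass the test, with a median of -0.09. The counts of both lists stand beside 28.7% of all named genes lower and 31.2% higher. INSIG1, which retains the SREBP complex in the endoplasmic reticulum, was lowest at -1.27 ± 0.22. MYLIP, a ubiquitin ligase of the LDL receptor, was highest at 0.87 ± 0.20.

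The counts of the smaller lists stand beside 28.7% of all named genes lower and 31.2% higher. Of 5 electron donors and helpers of the sterol oxidations, 3 were lower and 2 higher, with a median of -0.18. SEC14L2, a lipid-binding protein known to stimulate squalene epoxidase, was -0.50 ± 0.16. POR, the reductase that passes electrons to SQLE and CYP51, was higher at 0.39 ± 0.14 in 10 of 10 animals. In sterol esterification and efflux 1 of 9 genes was lower and 4 higher, with a median of 0.04. They ran between LCAT, a plasma cholesterol acyltransferase, at -0.53 ± 0.15 and ABCG5, a biliary sterol exporter subunit, at 2.92 ± 0.23. Of 5 genes for degradation of SQLE and other sterol synthesis enzymes, 2 were lower and 3 did not pass the test, with a median of -0.03. They ran between VCP, an ATPase that extracts proteins from membranes, at -0.80 ± 0.38 and MARCH6, the ubiquitin ligase that targets SQLE, at 0.07 ± 0.13, which did not pass.

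Of 52 cell type markers tested, 67.3% were called, 24 lower and 11 higher, beside 59.9% of all named genes. Of 12 listed hepatocyte markers, 11 were on the array and passed the filter, ALB among them, and 8 were lower in HFD liver, 1 higher (APOB) and 2 did not pass the test. Their mean ratio lay between -0.63 and -0.19 in the 10 animals, and the markers ran between FGB at -1.17 and APOB at 0.27. On the 14 arrays the hepatocyte mean was -0.26 with 6 of 11 lower. Of 9 macrophage and Kupffer cell markers, 3 were lower and 5 higher, with CD163 at -1.25 and LGALS3 at 1.30. Their mean lay between -0.05 and 0.40 in the 10 animals. Of 8 stellate cell markers 2 were lower and 2 higher, of 7 endothelial markers 2 and 3, of 4 cholangiocyte markers 0 and 0, of 6 lymphocyte markers 5 and 0, of 5 adipocyte markers 2 and 0, and of 2 red cell markers 2 and 0. The part of cell makeup in the enzymes' ratios was not tested.

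The genes with the most similar values were found by root mean square distance to the mean of the 6 brightest probes over the 10 animals, among 13687 genes well above background in both RNAs. That mean was -0.45 ± 0.03 and was drawn down by SQLE, which lay at a distance of 1.16 from it. DHCR7 lay nearest of the members, at 0.107, and the others between 0.151 and 0.497. RNF151 was nearest at a distance of 0.041, followed by SUMO3 (0.069), PAICS (0.076), PBX3 (0.076) and ACAA2 (0.079), and 17 genes lay within 0.1. Their mean ratios ran between -0.48 for ACAA2, a mitochondrial thiolase, and -0.40 for PBX3, a homeobox factor. None is an enzyme of cholesterol synthesis. This likeness is to the mean, not to any single enzyme, and describes level and spread over animals of 1 diet against 1 pool, and the 10 animals share the pool RNA.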

How the data were processed

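Liver RNA was labelled with Cy3 or Cy5 and hybridised to custom Agilent arrays, per the labels' protocols. Spot and local background intensities, and the processed intensities that the software background-subtracted and dye-normalised, were made with Agilent Feature Extraction 10.7.3.1, per the file headers. The authors deposited log2 ratios per probe and animal. The submitters' processing notes name limma for them, and their background method is not given in the sources used here. Over probes they correlated with the ratios computed here at r between 0.873 and 0.940, with slopes between 1.11 and 1.58 and column medians between -0.0145 and 0.0185. They run as HFD over STD pool on the log2 scale when the dyes are read from the array names, on which all directions rest. Their exact scale and centring are unknown.

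Intensities were corrected with normexp (offset 50) and normalised by loess within each array in limma 3.58.1 under R 4.3.3. Control and outlier spots had weight 0 and were left out. Means were taken over replicate spots, and then, with every ratio as HFD over STD pool, over the 2 arrays of an animal. Each array held 170327 spots, 165353 of them non-control, and 0 of the non-control spots were saturated. On these arrays 77.2% to 97.7% of probes were well above background in HFD RNA and 76.7% to 96.7% in the pool. The number of arrays limits the precision. Mean ratios were tested against 0 with lmFit and eBayes, two-sided, over all probes and over the brightest probe of each named gene. The test was tried on simulated ratios with known changes.

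The genes named are the 6 members with all probes, the tested further enzymes of the same stretch, the lowest and highest gene of each other pathway list, and the 5 nearest profiles. Further names are IDI1, cell markers at the ends of their lists, and genes read by probes that share sequence, all chosen after their values were seen. The members, lists and alternatives were chosen with earlier results of these data known, and the 9 comparisons within and between members after the values were seen. Some genes of the lists are not reported here and enter none of the lists' counts. No genome or protein sequence was used.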

Additional observations from a re-analysis of the deposited data

Results flagged for a closer look

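In 3 of the 22 probes, 1 animal lay apart from the other 9 by more than Dixon's 95% limit for 10 values, and chance flags about 1 in 20 groups. At LSS probe 94313, animal 1 had a ratio of -0.11, above all others, and the gap to the nearest animal was 0.618 of the range. This probe was well above background in HFD RNA on 7 of 20 arrays. At NSDHL probe 80442, animal 2 had a ratio of 0.027, the only value above 0, with a gap of 0.480. At EBP probe 55239, animal 2 had a ratio of -0.51, below all others, with a gap of 0.502. Animal 2 is the animal whose array with HFD in Cy5 was the brightest. Without it the EBP 55239 mean was -0.30 and the NSDHL 80442 mean -0.38, and both stayed lower.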

How the results depend on the processing

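Across 24 alternatives, SQLE, EBP and DHCR7 were called lower in every setting in which they were tested. SQLE ranged between -3.19 and -1.39, DHCR7 between -2.13 and -0.41 and EBP between -0.49 and -0.15, and DHCR7 was not tested under the strict filter. Between 19 and 21 member probes were called lower. On arrays with HFD in Cy5 alone, 3 of 6 genes were lower by their brightest probe, with NSDHL (gene and probe 57568) at 0.0056 and LSS at -0.08. On arrays with HFD in Cy3 alone, 1 gene and 1 probe, CYP51 23307, were higher at 0.16. With the mean of all probes CYP51 turned to -0.31. Alternatives for the comparisons between members were chosen after seeing the data. LSS minus NSDHL turned to 0.048 in the processed signals and 0.012 in the authors' deposited log2 ratios, and DHCR7 minus EBP to 0.054 on arrays with HFD in Cy3 alone. Scan session 3 alone called 2361 lower and 2738 higher named genes, against 3996 and 4358 with all arrays. Lower calls made up 47.8% of all calls, 39.8% with median centring in place of loess and between 41.7% and 51.2% elsewhere. Leaving out each animal in turn left 5 genes and 21 probes lower every time. Slide and animal as random blocks, at correlations of -0.11 and 0.18, changed no member call. Scan session 2 alone was not run, as it held 1 animal. The cause of the other shifts was not tested. No paired analysis was possible because all samples belong to 1 group. Signal near background limits the sizes for SQLE, DHCR7, SC4MOL, TM7SF2, LSS 94313 and NSDHL 80442.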
